A study of Homo sapiens with 12 samples.

Results

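Amphiregulin (*AREG*) and 9 other genes of the EGF family were followed through A375 cells exposed to a PPARγ agonist, a PPARγ antagonist or both. The 10 genes, of 23705 in the count table, were the ligands *AREG*, *EREG*, *HBEGF*, *TGFA*, *BTC*, *EPGN* and *NRG1* and the receptors *EGFR*, *ERBB2* and *ERBB3*. *AREG* was selected on its large rise with RGZ, that is by its counts in the RGZ and vehicle libraries described here. Its values against vehicle are therefore a description without a test, and so are those of every other comparison that shares libraries with RGZ against vehicle. The other 9 genes were listed because they belong to the family.

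A375 is an established human metastatic melanoma line, and it carries an activating *BRAF* mutation. Cells received DMSO vehicle, 5 μM rosiglitazone (RGZ, a PPARγ agonist), 2 μM T0070907 (a PPARγ antagonist) or the 2 compounds together (combination) for 24 h. Each condition was sequenced once in each of 3 independent experiments, which gave 12 libraries. Within an experiment, RNA from technical replicates of a condition had been pooled. One cell line at 1 time point was measured, and every group carried the same DMSO dilution.

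EGF-family ligands are made as membrane-bound precursors and are freed by metalloproteases such as ADAM17. AREG, TGFA and EPGN bind EGFR, whereas HBEGF, BTC and EREG bind both EGFR and ERBB4, and NRG1 binds ERBB3 and ERBB4. ERBB2 has no known ligand and acts as the partner of the other receptors, and ERBB3 signals through its partner because its own kinase is weak. Bound receptors pair and activate RAS, ERK and PI3K signalling. In melanocytes and melanoma, ERBB3 is a receptor of the neural crest lineage, and its signalling with NRG1 is known from the response to BRAF inhibition.

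Between 8319455 and 11375227 reads were counted per library, so that 3 counts, taken as the floor, were worth 0.258 to 0.371 CPM. CPM are the usual unit of reads relative to the library total, here after TMM scaling of the totals. Reads were counted for 23705 genes, and 13522 passed the filter on low counts. Of the 10 members 7 passed, and *EREG*, *BTC* and *EPGN* did not. The line was checked against its lineage. In vehicle *SOX10* stood at 311 CPM and *AXL* at 519 CPM on average, whereas the pigment genes *DCT* and *TYR* were at or under the floor in all 12 libraries. Of the same list, *PMEL*, *TYRP1* and *MLANA* averaged 1.13, 0.392 and 0.227 CPM in vehicle. The markers of other cell types *CDH1*, *CD3E* and *PTPRC* also lay at or under the floor in all 12. Other genes of the same marker lists were expressed in vehicle, *CD68* at 49.6 CPM, *KRT14* at 20.8, *PDGFRB* at 14.5 and *COL1A1* at 14.3 on average. *FABP4*, a canonical PPARγ target, had 1 count in each vehicle library and 1648 to 3513 counts with RGZ.

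*EPGN*, *EREG*, *AREG* and *BTC* are consecutive protein-coding genes on chromosome 4 in RefSeq (GRCh38.p14). Sequence just upstream of the annotated start was printed for these 4 genes, since neighbours that share a locus gave different values in the same cells. The stretches are 120 bases each, 5′ to 3′ on the strand of the gene. They lie at chr4:74308350-74308469 (plus strand) for *EPGN*, chr4:74365025-74365144 (plus) for *EREG*, chr4:74445016-74445135 (plus) for *AREG* and chr4:74794524-74794643 (minus) for *BTC*. Capitals mark matches to TATAAA (the TATA box), TGACGTCA (the cyclic AMP response element) and AGGTCA (the core recognised by nuclear receptors, read as TGACCT on the other strand).
EPGN: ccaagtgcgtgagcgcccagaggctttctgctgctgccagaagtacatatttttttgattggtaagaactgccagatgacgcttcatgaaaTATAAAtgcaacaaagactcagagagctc
EREG: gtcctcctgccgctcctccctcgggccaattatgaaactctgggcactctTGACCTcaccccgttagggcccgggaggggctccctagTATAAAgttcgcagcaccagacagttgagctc
AREG: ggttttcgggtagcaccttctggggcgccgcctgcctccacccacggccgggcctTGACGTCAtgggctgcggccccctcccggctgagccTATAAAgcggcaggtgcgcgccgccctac
BTC: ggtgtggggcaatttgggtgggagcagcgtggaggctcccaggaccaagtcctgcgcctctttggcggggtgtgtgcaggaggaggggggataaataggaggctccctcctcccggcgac

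These motifs were looked for on both strands of the window from 250 bases before to 50 bases after each start, in 35116 RefSeq windows that held 8 of the 10 members. *AREG* had a TATA box at −29 and a cyclic AMP response element at −65. The first occurred in 11.5% of all windows and the second in 1.85%. A TATA box was also found for *EREG* at −32 and for *EPGN* at −29, and in a window of *EGFR*. The core AGGTCA was found in windows of *EREG* and *HBEGF* and in 13.8% of all windows. A direct repeat of the core spaced by 1 base, AGGTCANAGGTCA, which contains the core and is the element bound by PPARγ with its partner RXR, occurred in 0.0228% of windows and in 0 of those of the members. A match describes letters in the window, and no binding was measured.

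*AREG*, a ligand of *EGFR*, was near the floor in vehicle and well above it with RGZ. The 3 vehicle libraries held 4, 8 and 3 *AREG* reads in experiments 1 to 3, the RGZ libraries 83, 174 and 85, the T0070907 libraries 1, 4 and 0, and the combination libraries 3, 18 and 9. All 3 RGZ libraries lay above all other 9. Mean levels ± SD were 0.586 ± 0.321 CPM in vehicle, 12.4 ± 6.49 CPM in RGZ-treated cells, 0.158 ± 0.183 CPM under T0070907 alone and 1.08 ± 0.767 CPM under both compounds (n = 3 each). Vehicle thus stood barely above the floor, and the mean with T0070907 under it.

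Within experiments the RGZ library was 19.0, 20.9 and 24.4 times the vehicle library in *AREG* CPM. The spread of the RGZ level came mainly from experiment 2, where vehicle was also highest, so that the ratio varied less than the level. Pooled over the 3 experiments, 342 *AREG* reads with RGZ stood against 15 in vehicle, a ratio of 20.8 per effective library size. With 15 reads in the denominator this ratio is imprecise.

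T0070907 given with RGZ left *AREG* far under the level of RGZ alone. The combination library held 0.0430, 0.0953 and 0.112 times the CPM of the RGZ library in experiments 1, 2 and 3. Against vehicle the same libraries were at 0.816, 1.99 and 2.73 times, that is lower in experiment 1 and higher in the other 2. The summed reads, 30 against 15, gave a ratio of 1.91. T0070907 alone had 5 reads against 15, a ratio of 0.273, and 1 of its 3 libraries was at 0 counts.

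The combination against T0070907 alone shares no library with the choice of *AREG*, and it was tested. *AREG* passed the filter on low counts only through its 3 RGZ libraries, and a fit of only the T0070907 and combination libraries dropped it. The RGZ libraries do not enter this contrast, but they share in its estimate of the spread. *AREG* was higher in the combination in all 3 experiments, with 30 against 5 summed reads (ratio 7.0, 95% interval 2.69 to 23.1). Intervals on summed reads cover counting error only. In edgeR's quasi-likelihood test without the experiment as a block, the log2 fold change was 2.69 (SE 0.88), and the Benjamini-Hochberg adjusted p of 0.261 did not pass. With the experiment as a block it was 2.71 (SE 0.55), and the adjusted p was 0.00866. With no filter on low counts, *AREG* had 2.69 (adjusted p = 0.354) without the block and 2.71 (adjusted p = 3.05e-04) with it. Leaving out experiment 3 with the block ended this call (log2 fold change 2.20, adjusted p = 0.196), whereas it held without experiment 1 (2.93, adjusted p = 0.00843) and without experiment 2 (3.48, adjusted p = 0.0207). Without the block, leaving out single libraries gave 2.01 to 4.14 (adjusted p 0.284 to 0.628), and 0 of these 6 fits called it.

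An older annotation lists *AREGB*, a near-identical copy of *AREG*, beside it, and RefSeq now holds that name as a synonym of *AREG*. That copy was not analysed here, and how reads fitting both copies were counted is not given in the sources used here. The absolute level of *AREG* is therefore uncertain, while all 12 libraries were counted in 1 table.

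**Figure D1:**
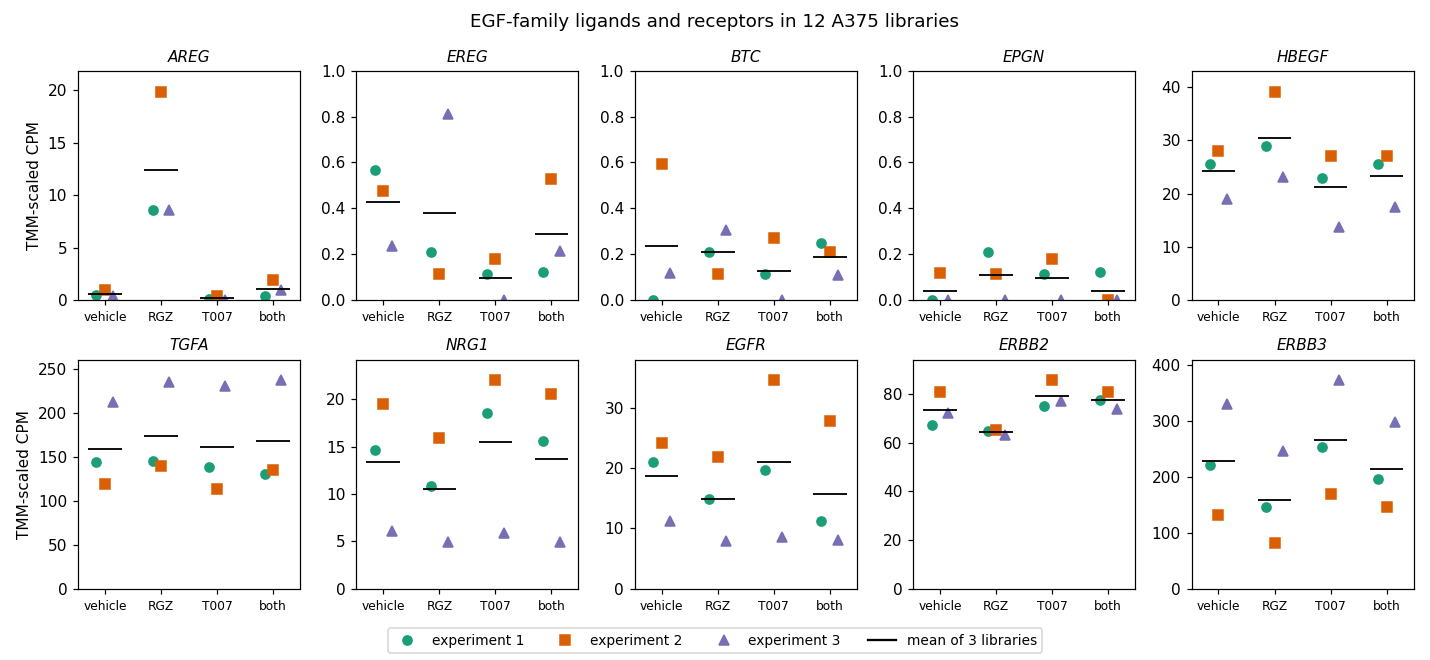
TMM-scaled CPM (vertical axes, each from 0) of the 10 EGF-family members in vehicle, RGZ, T0070907 (T007) and the combination (both); each symbol is 1 library, its shape gives the experiment and the line is the mean of 3. The 3 RGZ libraries of AREG stand at 8.63 to 19.9 CPM and all others under 2 CPM, whereas TGFA, NRG1, EGFR and ERBB3 are spread mainly by experiment.

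The neighbours of *AREG* on chromosome 4 were nearly silent in all conditions. *EREG*, which binds *EGFR* and *ERBB4*, had 5, 4 and 2 reads in vehicle, 2, 1 and 8 after RGZ, 1, 2 and 0 under T0070907 alone and 1, 5 and 2 under both compounds. Its 11 summed reads with RGZ equalled the 11 of vehicle. The ratio was 0.911, with a 95% interval of 0.358 to 2.32. T0070907 alone had 3 reads against the 11 of vehicle, a ratio of 0.223 with an interval of 0.0400 to 0.844.

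*BTC*, the ligand betacellulin, had 0, 5 and 1 reads in vehicle and 2, 1 and 3 with RGZ. The RGZ to vehicle ratio of its summed reads was 0.911, with an interval of 0.244 to 3.41. Its T0070907 libraries held 1, 3 and 0 reads and its combination libraries 2, 2 and 1. *EPGN*, the ligand epigen, never exceeded 2 reads in a library, and its summed reads were 1 in vehicle and 3 with RGZ. A change in *EPGN* was not detectable at this depth.

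Of the 6 members other than *AREG* that passed the filter, 0 were called for RGZ against vehicle without the block, where 1.24% of all 13522 tested genes were called. Of the 6, *ERBB2* alone had an unadjusted p under 0.05 (0.0326), as 10.5% of all tested genes did. The members differed widely between experiments, as described further on, and the spread within a condition then contains that difference. With the experiment as a block 2 of the 6 were called, *HBEGF* higher and *ERBB3* lower, where 9.3% of all tested genes were called. In that fit 5 of the 6 had an unadjusted p under 0.05, as 22.1% of all tested genes did. The median log2 fold change of the 6 was −0.27, and that of all tested genes was −0.01.

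*HBEGF*, the heparin-binding ligand of *EGFR* and *ERBB4*, was higher with RGZ in each experiment and was called in the blocked fit. Its level was 25.5, 28.1 and 18.9 CPM in vehicle, 28.9, 39.2 and 23.0 after RGZ, 22.9, 27.0 and 13.7 under T0070907 alone and 25.6, 27.0 and 17.5 under both compounds. The RGZ library exceeded vehicle 1.13-, 1.39- and 1.22-fold within experiments, although the ranges of the 2 groups overlapped. The log2 fold change for RGZ was 0.32 (SE 0.10) with the block, with an adjusted p of 0.0428, and 0.33 (SE 0.27) without it, with an adjusted p of 0.724. In the blocked fits that left out 1 experiment, *HBEGF* kept the call without experiment 1 (adjusted p = 0.036) and lost it without experiment 2 (0.292) and without experiment 3 (0.224). The call of *HBEGF* thus depended on the block.

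*HBEGF* was lower in the combination than with RGZ alone in all 3 experiments, at 0.885, 0.690 and 0.758 times. The blocked log2 fold change was −0.38 (SE 0.10, adjusted p = 0.0158), and it was called in 1 of 3 fits that left out an experiment, without experiment 1. This comparison and RGZ against vehicle share the RGZ libraries, so the 2 differences are not independent. Between the combination and T0070907, which share no library with RGZ against vehicle, *HBEGF* differed by 0.15 (SE 0.10, adjusted p = 0.335).

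*TGFA*, a ligand of *EGFR* alone, was the most abundant ligand per length of transcript and did not pass the test in any comparison. It stood at 144, 120 and 212 CPM in vehicle, 145, 140 and 235 after RGZ, 139, 114 and 231 under T0070907 alone and 131, 136 and 237 under both compounds. It was slightly higher with RGZ in 3 of 3 experiments, with a blocked log2 fold change of 0.13 (SE 0.07, adjusted p = 0.292).

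*NRG1*, the ligand of *ERBB3* and *ERBB4*, was lower with RGZ than in vehicle in all 3 experiments but missed the threshold. Its level was 14.6, 19.5 and 6.12 CPM in vehicle, 10.8, 16.0 and 4.97 after RGZ, 18.6, 22.0 and 5.95 under T0070907 alone and 15.6, 20.6 and 4.93 under both compounds. The blocked log2 fold change was −0.34 (SE 0.12, adjusted p = 0.0981), and without the block the adjusted p was 0.888.

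*ERBB3*, the receptor of *NRG1*, fell with RGZ in the blocked fit and was called in that comparison in each of 3 fits that left out an experiment. Its level was 221, 131 and 330 CPM in vehicle, 146, 82.0 and 245 after RGZ, 253, 169 and 372 under T0070907 alone and 195, 147 and 298 under both compounds. In every condition experiment 3 was highest and experiment 2 lowest, and the groups overlapped in every comparison. Within experiments RGZ gave 0.661, 0.625 and 0.745 times the vehicle level.

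In *ERBB3* the log2 fold change for RGZ was −0.55 (SE 0.08, adjusted p = 1.1e-04) with the block, against −0.52 (SE 0.43, adjusted p = 0.724) without it. In the fits without 1 experiment it ran from −0.63 to −0.51. *ERBB3* was higher in the combination than with RGZ alone, by 0.50 (SE 0.08, adjusted p = 3.44e-04) with the block, also in 3 of 3 such fits. It remained lower in the combination than with T0070907 alone, at 0.772, 0.867 and 0.802 times within experiments. That difference was −0.30 (SE 0.08, adjusted p = 0.0269) with the block and was called in 1 of 3 fits, without experiment 2. T0070907 alone gave 0.24 (SE 0.08) against vehicle, higher in 3 of 3 experiments, with an adjusted p of 0.218.

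*ERBB2*, the receptor without a known ligand, differed least between experiments among the 7 tested members. Its level was 67.2, 80.6 and 72.3 CPM in vehicle, 64.6, 65.3 and 62.9 after RGZ, 74.9, 85.5 and 77.2 under T0070907 alone and 77.5, 80.7 and 73.7 under both compounds. All 3 RGZ libraries lay under all 9 others. Against vehicle the log2 fold change was −0.19 (SE 0.08, adjusted p = 0.407), and with the block the adjusted p was 0.0884. Against RGZ the combination was higher by 0.27 (SE 0.08, adjusted p = 0.164) without the block and by 0.26 (SE 0.07, adjusted p = 0.0125) with it. That blocked call was lost without experiment 3 (adjusted p = 0.152).

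*EGFR*, the receptor of *AREG*, *TGFA* and *HBEGF*, did not pass the test in any comparison in the fits on all libraries with the filter on low counts, without or with the block. It stood at 21.0, 24.2 and 11.2 CPM in vehicle, 14.9, 21.9 and 7.92 after RGZ, 19.8, 34.6 and 8.53 under T0070907 alone and 11.2, 27.9 and 8.04 under both compounds. With RGZ it was lower than vehicle in 3 of 3 experiments, with a blocked log2 fold change of −0.36 (SE 0.16, adjusted p = 0.210). Without experiment 2 the blocked fit called *EGFR* lower with RGZ (−0.50, adjusted p = 0.0467) and lower with the combination than in vehicle (−0.72, adjusted p = 0.00321) or with T0070907 (−0.50, adjusted p = 0.0356), where 7.54%, 19.6% and 16.4% of all genes were called. With no filter, the blocked fit of all libraries also called *EGFR* lower in the combination than under T0070907 (−0.39, adjusted p = 0.0305), beside 9.33% of all genes. In experiment 2 the combination library held 27.9 CPM, above the vehicle library of that experiment.

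For the other comparisons the counts of called members were small as well. T0070907 against vehicle had 0 of 6 called without the block (background 0.0074% of tested genes) and 0 of 6 with it (0.91%). The combination against vehicle had 0 of 6 in both fits, where edgeR called 0% of all tested genes in each fit, and 0 of the 6 had an unadjusted p under 0.05 in either, against 10.6% of all genes without the block and 21.2% with it. The combination against T0070907 had 0 of the 6 members other than *AREG* called without the block (0.037%) and 1 of 6 with it (8.76%), namely *ERBB3* lower, and *AREG* is described above.

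The combination against RGZ had 0 of 6 called without the block (1.24%) and 3 of 6 with it (11.4%), namely *ERBB2* and *ERBB3* higher and *HBEGF* lower. At an unadjusted p under 0.05 it had 1 of 6 without the block and 4 of 6 with it, against 13.1% and 25.6% of all genes. The interaction of the 2 compounds, which asks whether the effect of RGZ differed in the presence of T0070907, had 0 of 6 in either fit, beside 0% of all genes in the fit without the block and 0.281% in the blocked one. At an unadjusted p under 0.05 the interaction had 0 of 6 without the block and 1 of 6, *ERBB3*, with it (log2 0.25, SE 0.11, adjusted p = 0.473), against 3% and 9.79% of all genes. DESeq2 called 0 members in any of the 6 comparisons, and its adjusted p was NA for some of them. It called 2.23% of all genes for RGZ, 0.155% for T0070907 and 0% for the combination, each against vehicle. For the combination it called 0.614% against T0070907 and 2.35% against RGZ, and for the interaction 0.0074%.

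**Figure D2:**
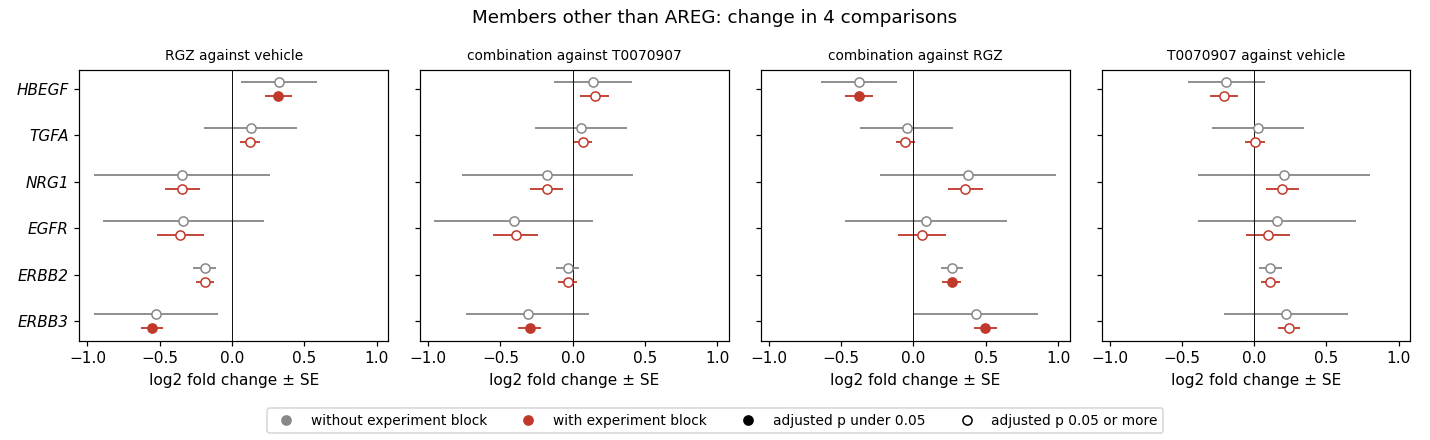
Log2 fold change ± SE (horizontal axes) of the 6 tested members other than AREG in 4 comparisons, from edgeR fits without (grey) and with (red) the experiment as a block; filled symbols have an adjusted p under 0.05. The estimates of the 2 fits nearly coincide and the error bars are shorter with the block; 2 symbols are filled for RGZ against vehicle, 1 for the combination against T0070907 and 3 for the combination against RGZ.

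To compare levels between genes, CPM were divided by the length in kb of the longest transcript of each gene in GENCODE release 29. In vehicle, mean CPM per kb ran from *ERBB3* at 38.4 and *TGFA* at 36.8, which overlapped, to *ERBB2* at 14.9 and *HBEGF* at 10.1, each separated from its neighbours. *NRG1* at 2.26 and *EGFR* at 1.91 overlapped with each other. Then came *AREG* at 0.473, above *EREG* at 0.0923, *BTC* at 0.0844 and *EPGN* at 0.0332, and these last 3 overlapped.

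With RGZ, *AREG* moved from the seventh to the fifth place at 9.98 CPM per kb, above *NRG1* and *EGFR*. Its range overlapped that of *HBEGF* (12.7), which was above it within 3 of 3 experiments, and *HBEGF* in turn overlapped *ERBB2*. Of tested genes with a length, 6.39% were as low as *AREG* or lower in vehicle, 56.0% after RGZ, 0.426% under T0070907 alone and 12.5% under both compounds. *TGFA*, at 40.2 CPM per kb with RGZ, still exceeded *AREG*, so *AREG* was the third ligand by level. *ERBB3*, first in vehicle, was second with RGZ at 26.7.

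*NRG1*, *EGFR*, *ERBB3*, *TGFA* and *HBEGF* differed more between experiments than between the means of the conditions. Averaged over the 4 conditions, *NRG1* was 14.9, 19.5 and 5.49 CPM in experiments 1, 2 and 3, a 3.56-fold range. *EGFR* had a 3.04-fold range, *ERBB3* a 2.35-fold, *TGFA* a 1.80-fold and *HBEGF* a 1.66-fold one, against a median of 1.14-fold over all tested genes. *ERBB2* had a 1.1-fold range.

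*EGFR*, *NRG1* and *HBEGF* were highest in experiment 2 and lowest in experiment 3 in all 4 conditions. *ERBB3* was highest in experiment 3 and lowest in experiment 2 in all 4, and *TGFA* was highest in experiment 3 in all 4. Lineage markers differed between the same experiments: *SOX10*, *S100B* and *NGFR* were highest in experiment 3 and lowest in experiment 2, and *SOX9* and *MITF* the reverse, in all 4 conditions. *SOX9* stood at 8.63, 23.4 and 2.01 CPM and *SOX10* at 307, 211 and 408 CPM in experiments 1, 2 and 3. Of the markers of other cell types, *COL1A1* (5.52-fold range) and *PDGFRB* (1.87-fold) were highest in experiment 2 and lowest in experiment 3 in all 4 conditions, and *KRT14* (2.47-fold) the reverse. *KRT5*, of the same list as *KRT14*, went the other way (4.53-fold), highest in experiment 2 in all 4 conditions and lowest in experiment 3 in 3. *CD68* (1.94-fold) was highest in experiment 2 in all 4. *AXL*, listed with *NGFR* and *SOX9*, was highest on average in experiment 1 and lowest in experiment 3. The part of these markers in the members' differences was not tested. With 3 experiments these orders are a description without a test, and in RNA from whole cultures fewer cells of a type and less RNA per cell cannot be told apart.

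**Figure D3:**
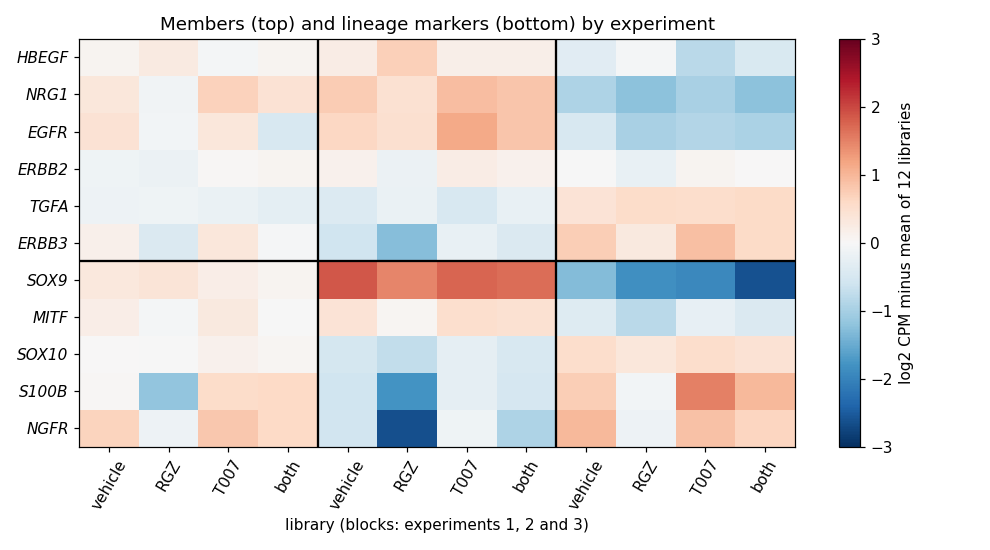
Log2 TMM-scaled CPM minus the mean of 12 libraries (colour) of 6 members and 5 lineage markers (rows) in the 4 conditions of each experiment (columns, with T007 for T0070907 and both for the combination; black lines separate experiments and the members from the markers). EGFR and NRG1 are high in experiment 2 and low in experiment 3, as SOX9 is, and ERBB3 is low in experiment 2 and high in experiment 3, as SOX10, S100B and NGFR are.

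Lineage markers also moved with RGZ beside *ERBB3*. With the block, 2 of the 4 tested melanocyte markers were called lower, *S100B* (−1.02, SE 0.13, adjusted p = 3.73e-05) and *MITF* (−0.34, SE 0.08, adjusted p = 0.00997), and so were 2 of 3 neural crest markers, *NGFR* (−1.18, SE 0.17, adjusted p = 1.01e-04) and *AXL* (−0.22, SE 0.07, adjusted p = 0.0434). Without the block 0 of these were called. The share of all tested genes called for RGZ was 9.3% with the block and 1.24% without it. The summed level of the 8 melanocyte markers was 281 to 498 CPM in vehicle and 229 to 422 CPM with RGZ. Their part in the fall of *ERBB3* was not tested.

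Marker lists of other cell types were called in part with the block, where 9.3% of all tested genes were called. Without it 0 of their genes were called, beside 1.24% of all tested genes. The 4 keratinocyte and epithelial markers summed to 14.6 to 33.5 CPM in vehicle and 6.62 to 16.9 with RGZ, with *KRT14* called lower (1 of 2 tested). The 4 fibroblast markers summed to 18.2 to 49.1 CPM in vehicle and 9.54 to 29.8 with RGZ, with *COL1A1* and *PDGFRB* called lower (2 of 3). The 4 blood and endothelial markers summed to 35.8 to 74.0 CPM in vehicle and 49.9 to 98.6 with RGZ, with *CD68*, the 1 tested, called higher. Among these lists only *CDH1*, *CD3E* and *PTPRC* were at or under the floor in all libraries. *PECAM1*, which did not pass the filter, had 4 summed reads in vehicle and 19 with RGZ. The part of these marker lists in the members' values was not tested.

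The rest of the pathway was read from 5 lists with 39 genes, of which 37 passed the filter. For RGZ against vehicle the fit without the block called 1 of 37 and the blocked fit 9, 3 higher and 6 lower, beside backgrounds of 1.24% and 9.3%. *ETV4*, an ETS factor induced by ERK signalling, was the 1 called without the block (log2 0.41, SE 0.08, adjusted p = 0.0356). It stood at 217, 247 and 255 CPM in vehicle and 298, 332 and 328 with RGZ, groups that did not overlap. Leaving out any 1 of the 6 libraries compared ended the call (adjusted p 0.0518 to 0.14), whereas with the block *ETV4* was called in 3 of 3 fits that left out an experiment.

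Among the 10 ERK output genes, transcripts that rise with ERK activity, 1 was called without the block (beside 1.24% of all genes) and 6 with it (beside 9.3%), 3 higher and 3 lower. *ETV4* (0.41, adjusted p = 1.01e-04), *PHLDA1* (0.32, adjusted p = 0.00251) and *EPHA2* (0.25, adjusted p = 0.0134) rose. *ETV5* (−0.25, adjusted p = 0.016), *CCND1*, which encodes cyclin D1 (−0.22, adjusted p = 0.0111), and *DUSP6*, an ERK phosphatase (−0.18, adjusted p = 0.0403), fell. The median of the list was −0.03. Of the 6, *ETV4* was called in 3 of 3 fits that left out an experiment, *PHLDA1* and *ETV5* in 2, *EPHA2* and *CCND1* in 1 and *DUSP6* in 0.

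Among the ligands outside the members, *EGF* itself fell with the block (−1.15, SE 0.31, adjusted p = 0.0247). It had 21, 16 and 22 reads in vehicle and 12, 7 and 10 with RGZ, and its call held in 0 of 3 fits that left out an experiment. *NRG2* and *NRG4* were not called, and *NRG3* and *ERBB4*, the receptor of several of these ligands, did not pass the filter. Of the 6 genes of ligand shedding 1 was called with the block, where 9.3% of all tested genes were called. It was *RHBDF1*, an inactive rhomboid that carries *ADAM17* to the cell surface (−0.26, SE 0.08, adjusted p = 0.0499). It too was called in 0 of 3 such fits, and *ADAM17* was not called.

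Of 9 receptor inhibitors and turnover genes, such as *ERRFI1* and *CBL*, 0 were called in any comparison in either fit on all libraries. At an unadjusted p under 0.05, 1 of the 9 passed for RGZ with the block, against 22.1% of all genes. For the combination 3 passed against T0070907 (27.8% of all genes), 3 against vehicle (21.2%) and 2 against RGZ (25.6%). The lowest adjusted p of the list with the block was 0.0527, for the combination against T0070907. Of 9 adaptors, *PLCG1*, the phospholipase recruited by *EGFR*, fell with the block (−0.29, SE 0.06, adjusted p = 0.00297). The other 8 were not called, where 9.3% of all tested genes were called. The call of *PLCG1* was lost without experiment 3 (adjusted p = 0.202), and without the block its adjusted p was 0.0577. Its level was 152, 132 and 157 CPM in vehicle and 124, 116 and 120 with RGZ, groups that did not overlap.

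The combination against T0070907 showed some of these differences in libraries that RGZ against vehicle did not use. With the block 7 of 37 were called, beside 8.76% of all genes, and 0 without it, beside 0.037%. *PHLDA1* (0.45, adjusted p = 5.09e-04) and *ETV4* (0.24, adjusted p = 0.0214) were higher. *PIK3R1*, a PI3K regulatory subunit (−0.49, adjusted p = 0.00848), *PLCG1* (−0.26, adjusted p = 0.0153) and *PTPN11*, the phosphatase SHP2 (−0.23, adjusted p = 0.0292), were lower, as were *ETV5* (−0.27, adjusted p = 0.0191) and *SPRY4* (−0.23, adjusted p = 0.0333). *PHLDA1* and *PIK3R1* were called in 2 of 3 fits that left out an experiment and the other 5 in 1, without experiment 2.

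For the combination against RGZ 4 of 37 were lower with the block and 0 without it, beside 11.4% and 1.24% of all genes. These were *EPHA2* (−0.36, adjusted p = 7.89e-04), *ETV4* (−0.32, adjusted p = 0.00131), *PHLDA1* (−0.29, adjusted p = 0.00614) and *PTPN11* (−0.21, adjusted p = 0.027). *EPHA2* and *ETV4* kept the call in 3 of 3 fits that left out an experiment, and *PHLDA1* and *PTPN11* in 1, without experiment 2. T0070907 against vehicle had 1 of 37 called with the block, *PHLDA1* (−0.41, adjusted p = 0.00248), and 0 without it, beside 0.91% and 0.0074% of all genes. That call was lost without experiment 3 (adjusted p = 0.268). The combination against vehicle and the interaction had 0 of 37 in both fits. Of all genes, 0% were called in both fits of the former. For the interaction the share was 0% without the block and 0.281% with it. With the block 12 of 37 had an unadjusted p under 0.05 for the combination against vehicle, where 21.2% of all genes had one, and 1 of 37 for the interaction, where 9.79% did.

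**Figure D4:**
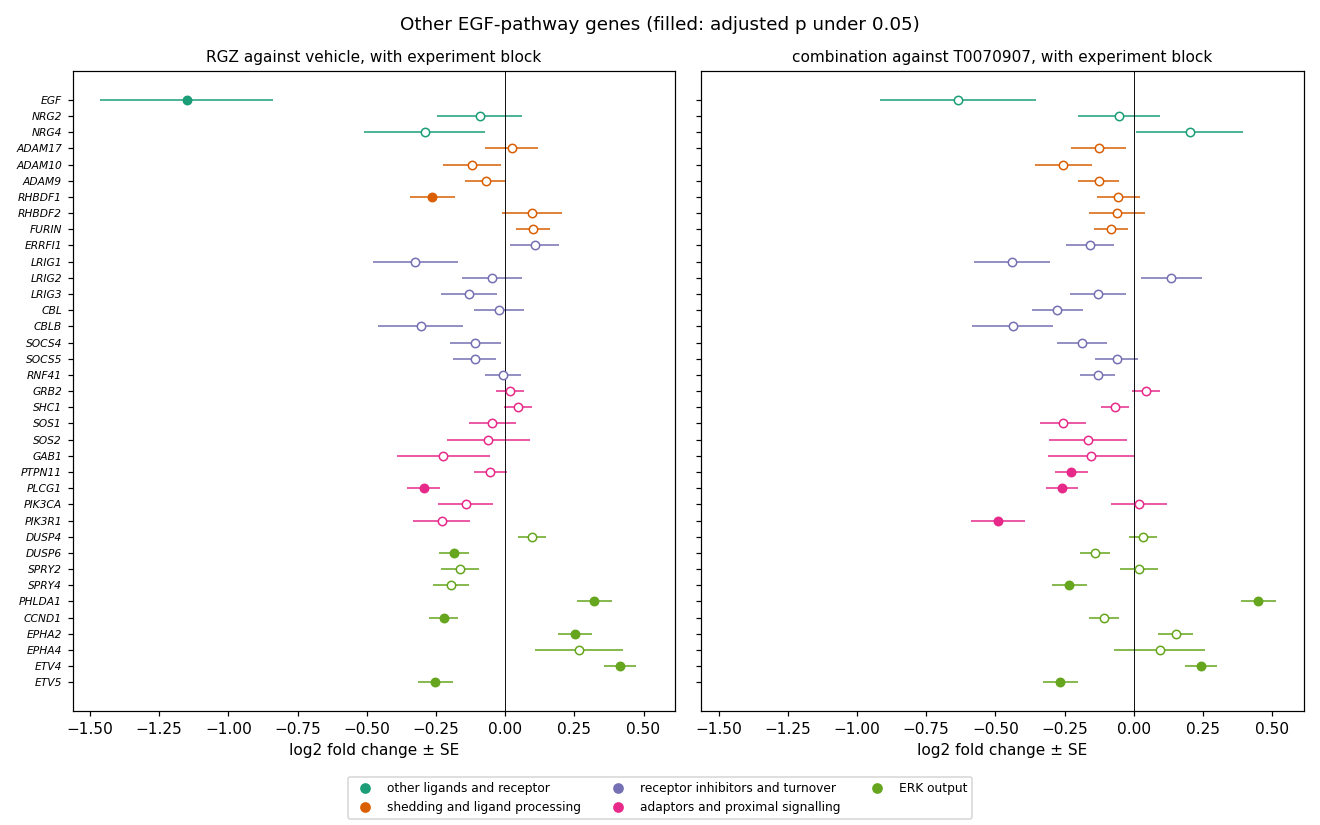
Log2 fold change ± SE (horizontal axes) of the 37 tested pathway genes, coloured by list, for RGZ against vehicle (left) and the combination against T0070907 (right), both from the edgeR fit with the experiment as a block; filled symbols have an adjusted p under 0.05. PHLDA1 and ETV4 lie right of 0 and PLCG1 and ETV5 left of 0, filled, in both panels, and the symbols of the receptor inhibitors are all open.

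The genes whose log2 level over the 12 libraries was most like that of *AREG* were *RBPMS*, *GDE1*, *IRF1*, *PTGES* and *CHMP2B*, by Pearson r among the 13184 tested genes whose mean reached 1 CPM. Their r with *AREG* was 0.984, 0.981, 0.980, 0.979 and 0.975. The libraries share 4 conditions and 3 experiments, so r describes the common pattern and carries no p. *PTGES*, a prostaglandin E synthase, had the widest change among them, from 17.1 ± 6.70 CPM in vehicle to 115 ± 65.9 after RGZ, 9.45 ± 0.684 under T0070907 alone and 22.5 ± 8.11 under both compounds (SD, n = 3). *IRF1*, an interferon-induced transcription factor, went from 19.5 ± 1.65 to 37.5 ± 5.40 CPM with RGZ.

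Among the members, *HBEGF* had an r of 0.648 with *AREG*, *ERBB2* −0.663 and *ERBB3* −0.661 over the 12 libraries. *TGFA*, *NRG1* and *EGFR* had r of −0.02, −0.04 and 0.04. The levels were not centred by experiment, so the spread of these genes between experiments enters their r. *HBEGF*, *ERBB2* and *ERBB3* are also the members called in the blocked comparison of the combination with RGZ. Both the r and those calls rest on the RGZ libraries, by which *AREG* was picked. The match is therefore a description without a test.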

How the data were processed

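RNA was sequenced from TruSeq libraries on an Illumina HiSeq machine. The values deposited by the authors are whole-number read counts of 23705 genes, not normalized, on hg19 per the submitters' processing notes. The aligner, the annotation and the strand setting are not given in the sources used here, so genes overlapping on opposite strands may share reads. Symbols were found for 23538 genes by NCBI gene number. All 12 libraries were assigned from their labels, and 0 columns of other samples were present.

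The software was edgeR 4.0.16, DESeq2 1.42.0 and limma 3.58.1 in R 4.3.3. After TMM scaling, filterByExpr kept 13522 genes, and edgeR's quasi-likelihood model of the 4 groups was fitted on all 12 libraries. The 6 contrasts were tested, and a gene with a Benjamini-Hochberg adjusted p under 0.05 over all tested genes was called. SE is approximate, taken as the fold change over the root of its F value. The edgeR fit with the experiment as a block was an alternative. The number in the labels was taken to mark a shared independent experiment, which the labels do not spell out. Over 18 pairs of libraries of the same experiment, deviations from group means correlated at 0.554 on average (0.0793 to 0.758), and the common dispersion was 0.0193 without and 0.00333 with the block. Tests were two-sided. Intervals of summed reads are exact conditional binomial ones at 95%. Other alternatives were DESeq2, its size factors in edgeR, other filters, only the groups compared and leaving out libraries. Leaving out a whole experiment with the block, and the block with no filter on low counts, were added after seeing the data. The script was tested on simulated data.

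The members, the pathway and marker lists and the rule for naming genes were chosen with earlier results of these data known. Named were the 10 members, up to 3 called genes per list, direction and comparison (without the block, or with it where none was called), and the 5 genes most correlated with *AREG* on the log2 CPM scale (prior count 2, mean of at least 1 CPM). Called genes beyond that were named after their values were seen.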

Additional observations from a re-analysis of the deposited data

How the results depend on the processing

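The experiment block moved most calls. With it, called members numbered 2 for RGZ against vehicle, 2 for the combination against T0070907 (*ERBB3*, and *AREG*, which passed the filter only through its RGZ libraries, so 1 without it) and 3 for the combination against RGZ, and called pathway genes 9, 7 and 4 in these comparisons and 1 for T0070907 against vehicle. *AREG* in the combination against T0070907 gave 2.71 with the block (adjusted p = 0.00866), 2.93 and 3.48 with it and without experiment 1 or 2, and 2.01 to 4.14 over all fits that left out libraries, with or without the block (adjusted p 0.00843 to 0.628). With the block and no filter on low counts, the combination against T0070907 had 3 members (*EGFR* added, 2 without *AREG*) and 12 pathway genes, beside 9.33% of all genes, and 2.71 for *AREG*. The replicate block changed no other count of members or pathway genes. With DESeq2, pathway genes called were 2 for RGZ against vehicle (*ETV4* and *PLCG1*, beside 2.23% of all genes), 1 for the combination against T0070907 (*PLCG1*, beside 0.614%) and 1 for the combination against RGZ (*ETV4*, beside 2.35%), and its adjusted p for *AREG* was NA. A fit of only the groups compared called 0 pathway genes for RGZ, beside 0.529% of all genes.

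Over the fits that left out a library (without the block) or an experiment (with it), called members ranged from 0 to 2 for RGZ against vehicle, 0 to 1 for the combination against vehicle, 0 to 3 for the combination against T0070907 (0 to 2 without *AREG*) and 0 to 3 for the combination against RGZ. Pathway genes ranged from 0 to 5 for RGZ, 0 to 2 for T0070907, 0 to 13 for the combination against vehicle, 0 to 13 for the combination against T0070907 and 0 to 10 for the combination against RGZ. The highest pathway count of each comparison was reached without experiment 2 (for RGZ also without experiment 1). Without experiment 2 the block fit called 7.54% of all genes for RGZ, 0.944% for T0070907 and 19.6% for the combination against vehicle, and 16.4% and 16.6% for the combination against T0070907 and RGZ. The unblocked fits without 1 library called 0.328% to 0.643% for RGZ, 0.386% to 0.951% for the combination against RGZ and up to 0.102% elsewhere. Without experiment 1 or 3 the block fit called 0% to 7.59%. The cause was not tested. No value called without the block changed sign under any alternative run. *ERBB3* and *SPRY4*, called lower with the block in the combination against T0070907, changed sign in the unblocked fit without T0070907 library 3 (0.02 and 0.12). In all, 135 values changed sign under an alternative while called neither in it nor in the unblocked fit of all libraries. A minimum of 10 counts in every library removed *AREG*, so it gave no value there. Depth limits *EREG*, *BTC* and *EPGN* to intervals on summed reads.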
